A study of Mus musculus with 8 samples.

Results

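Adrenomedullin and adrenomedullin 2 are secreted peptides that relax blood vessels, and they are described here together with the proteins that form their receptors, in hearts of mice that lost RNase H1 from muscle. The 6 genes are *Adm* and *Adm2*, which encode the peptides, *Calcrl*, which encodes the receptor chain, and *Ramp1*, *Ramp2* and *Ramp3*, which encode its partner proteins. They were taken by gene name from 54508 genes listed in the deposited table, and each matched 1 row. All 6 averaged 10 or more normalised counts across the 8 libraries and so entered the test of 17046 genes. *Adm2* passed this limit only through the knockout hearts, where it is high, whereas the other 5 exceeded it in both groups.

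Total RNA was sequenced from hearts of 24-week-old C57BL/6 mice, 4 labelled RNase H1-/- (*Rnaseh1* knockout) and 4 labelled RNase H1+/+ (wild type). In the knockout, exon 2 of *Rnaseh1*, between loxP sites, was removed by Cre under the muscle creatine kinase promoter (*Ckmm-cre*), which acts in cardiomyocytes and skeletal muscle and leaves the gene in vessels, fibroblasts and immune cells of the heart. The study describes its control animals as homozygous for the loxP allele and without Cre, so carriage of Cre and loss of RNase H1 cannot be told apart. The study asked how loss of RNase H1 alters mitochondrial gene expression, and the peptide system was read from the same libraries.

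The receptor chain, the calcitonin receptor-like receptor, works only with a receptor activity-modifying protein (RAMP). With RAMP2 or RAMP3 it forms the adrenomedullin receptors, and with RAMP1 it forms the receptor of calcitonin gene-related peptide (CGRP), a dilator peptide of sensory nerves. Adrenomedullin 2, also called intermedin, can act on all of these pairs. They signal mainly through the stimulatory G protein and cyclic AMP. In the heart the receptor chain and RAMP2 are known from endothelial cells of blood and lymph vessels, and mice that lack *Adm*, *Calcrl* or *Ramp2* die before birth with defects of vessels and heart.

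Libraries held between 27429878 and 30505752 counted read pairs in the knockout and between 31810103 and 40715847 in wild type. Nuclear genes took 24835342 to 27146119 of these pairs in the knockout and 11896021 to 16213429 in wild type, as mtDNA-encoded transcripts took 9.46% to 12.3% of pairs in the knockout and 60.2% to 62.6% in wild type. Cardiac muscle was plainly present, with *Myh6*, the adult myosin heavy chain, at 250887 ± 27531 normalised counts in the knockout and 662591 ± 24226 in wild type (SD, n = 4). *Rnaseh1* itself was at 182, 145, 166 and 166 normalised counts in knockout replicates 1 to 4, against 129, 144, 158 and 129 in wild type (log2 change 0.23 ± 0.12 SE, limma adjusted p = 0.114), but this total includes exons that the deletion leaves in place and so is no test of the genotype labels.

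Because the data bear on transcript levels, the promoter windows of the 3 genes that changed are shown, with 250 bases before and 50 bases after the start site (RefSeq, GRCm38.p6, gene strand, 5′ to 3′). Capitals mark a match to any of 8 spellings searched on both strands, which stand for named elements. They were the composite element bound by ATF4 with a C/EBP partner, written TGATGNAAT, the core of the cyclic AMP response element, written TGACG, and the AP-1 site, written TGANTCA. The hypoxia response element was searched by its core as ACGTG or, in the other form, as GCGTG. General promoter elements were the TATA box spelled TATAAA, the box for nuclear factor Y spelled CCAAT and the box for Sp1 spelled GGGCGG. The cyclic AMP and hypoxia cores can overlap each other, but no matches overlapped in these windows.
*Adm2*, chr15:89322470-89322769, plus strand: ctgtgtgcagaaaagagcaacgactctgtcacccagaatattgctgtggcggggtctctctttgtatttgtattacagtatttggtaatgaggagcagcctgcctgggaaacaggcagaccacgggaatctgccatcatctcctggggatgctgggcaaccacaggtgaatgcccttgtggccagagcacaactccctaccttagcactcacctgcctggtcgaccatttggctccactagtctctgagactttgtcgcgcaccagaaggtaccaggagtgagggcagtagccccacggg
*Adm*, chr7:110627407-110627706, plus strand: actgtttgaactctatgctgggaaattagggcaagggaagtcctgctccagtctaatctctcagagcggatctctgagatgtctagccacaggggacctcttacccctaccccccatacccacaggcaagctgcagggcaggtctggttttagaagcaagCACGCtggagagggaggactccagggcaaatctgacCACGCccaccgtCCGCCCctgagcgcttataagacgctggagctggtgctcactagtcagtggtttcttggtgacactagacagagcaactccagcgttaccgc
*Ramp1*, chr1:91179572-91179871, plus strand: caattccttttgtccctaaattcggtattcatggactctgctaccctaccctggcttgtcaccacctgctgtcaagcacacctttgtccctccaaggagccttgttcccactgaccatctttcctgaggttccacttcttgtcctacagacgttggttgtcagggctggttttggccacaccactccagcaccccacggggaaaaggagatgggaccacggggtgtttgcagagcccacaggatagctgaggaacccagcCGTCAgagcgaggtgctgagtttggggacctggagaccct

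None of the 8 spellings stood in the *Adm2* window, which says only that these letters were not there. The *Adm* window held GCGTG on the opposite strand at 2 places, whose first bases lie 90 and 54 bases before the start site, and GGGCGG on the opposite strand 42 bases before it. GCGTG was found in 32.4% and GGGCGG in 35.6% of all 32817 promoter windows of this length. The *Ramp1* window held 1 match, TGACG on the opposite strand from base 11 of the transcript on, a spelling found in 20.8% of all windows. TGATGNAAT stood in 0.966%, ACGTG in 19.6%, TGANTCA in 7.81%, TATAAA in 13.6% and CCAAT in 37.4% of them. Windows were found for 5 of the 6 genes, and *Ramp2* was not among them.

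Both peptide genes were higher in knockout hearts and *Ramp1* was lower, whereas no difference passed the test for *Calcrl*, *Ramp2* and *Ramp3* (limma-trend, adjusted p under 0.05 over all genes tested). Thus 2 of the 6 genes were higher, against 30.7% of all genes tested, and 1 was lower, against 28.4%, so that 3 of 6 were called, against 59.1% in either direction. These shares lie near those of the whole transcriptome, so the number of changed members is not a result in itself. The groups did not overlap for *Adm2*, *Adm* and *Ramp1*, or 3 of 6, against 54.7% of all genes tested (28.2% higher and 26.5% lower). *Adm2* is counted in these shares. Its call and its lack of overlap are no test, because it passed the filter only through its knockout values. With libraries scaled to equal totals, mtDNA-encoded reads included, 14952 genes were higher and 567 lower, and the median gene stood at 1.44 on the log2 scale, against 0.02 with the deposited scaling. *Calcrl*, *Ramp2* and *Ramp3* were then called higher, but relative to that median gene they stood at -0.07, -0.04 and 0.33, close to their values below. In these bulk samples fewer cells of a type and less RNA per cell cannot be told apart.

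**Figure D1:**
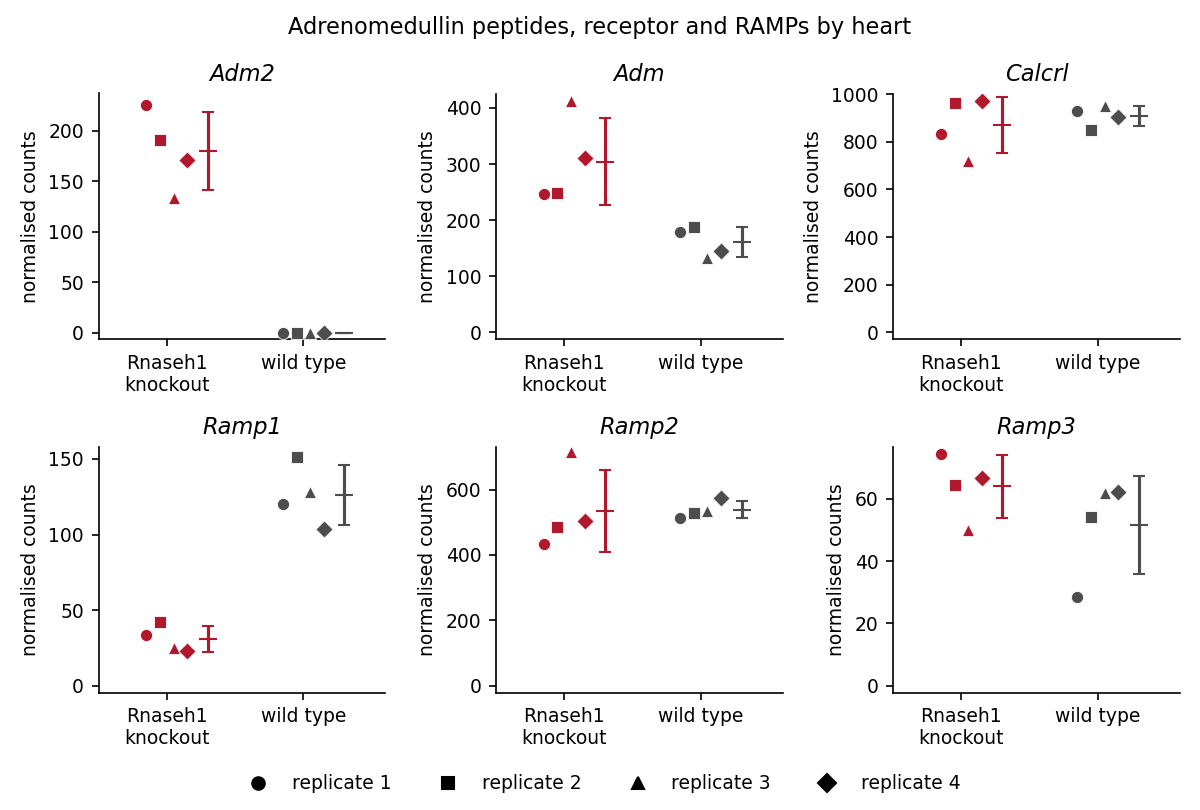
Normalised counts (y axis, from 0) of the 6 genes in each heart, *Rnaseh1* knockout on the left and wild type on the right of each panel. Symbols stand for the replicate numbers and the bar beside them for the mean ± SD (n = 4); *Adm2* is at 0 in every wild type heart, and the knockout heart with the most *Adm* and *Ramp2*, replicate 3, has the least *Adm2*.

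*Adm2* (GRCm38 chromosome 15, 89322720 to 89324731, plus strand) is the member that separated the groups most. Replicates 1 to 4 of the knockout had 226, 191, 133 and 171 normalised counts, from 324, 284, 204 and 271 read pairs, whereas each wild type heart had 0. No wild type library held a single pair for it, and every knockout library held more than 200. The knockout mean was 180.1 ± 38.7 (SD, n = 4). Since the 4 wild type libraries together would have shown 1.11 normalised counts at a floor of 3 read pairs over the group, *Adm2* was at least 161-fold higher in the knockout. No p is given, because the gene entered the test through its knockout values and has no spread in wild type. The bound covers counting error only, and ranged from 113 to 176 when 1 library was left out. The fold itself cannot be estimated with no read in wild type.

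*Adm* (chromosome 7, 110627661 to 110629820, plus strand) was present in every heart. It had 247, 248, 412 and 311 normalised counts in knockout replicates 1 to 4, against 179, 187, 133 and 145 in wild type replicates 1 to 4. All knockout hearts lay above all wild type hearts, and replicate 3 was the highest of the knockout and the lowest of wild type. The means were 305 ± 77.5 in the knockout and 161 ± 26.2 in wild type (SD, n = 4), a log2 change of 0.90 ± 0.18 (SE, adjusted p = 0.00144) or 1.86-fold. Without knockout replicate 3, the heart with most *Adm*, the log2 change was 0.74. The antisense gene *Gm28863* spans *Adm* on the other strand without sharing exonic bases, and had 10 read pairs over the knockout libraries and 3 over the wild type libraries.

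The 2 peptide genes ranked the knockout hearts in different orders. *Adm2* was highest in replicate 1 and lowest in replicate 3, and *Adm* was lowest in replicate 1 and highest in replicate 3, so that the order of the 4 knockout hearts in *Adm* was the reverse of that in *Adm2*. Per kilobase of exon, *Adm2* made up 53.2%, 49.0%, 28.7% and 40.7% of the 2 peptide transcripts together in knockout replicates 1 to 4, against 0% in each wild type heart. The second principal component of all tested genes, whose sign is arbitrary, held 10.02% of the variance and ordered these hearts the same way as *Adm*, at -35.9, -31.1, 54.2 and 11.5 for knockout replicates 1 to 4, with wild type hearts between -2.68 and 4.29. The summed level of 7 erythroid markers also ranked the knockout hearts in that order, at 6337, 6805, 22085 and 19549 normalised counts in replicates 1 to 4, against 10792 to 12813 in wild type. With 4 hearts this order is a description, and the part of blood content in it was not tested.

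*Calcrl* (chromosome 2, 84330626 to 84425411, minus strand) encodes the chain shared by the receptors formed with RAMPs. It was at 834, 960.4, 720.1 and 969 normalised counts in knockout replicates 1 to 4, against 931, 850.2, 949 and 903 in wild type. The groups overlapped and the highest and the lowest value both came from knockout hearts. The log2 change was -0.07 ± 0.10 (SE, adjusted p = 0.562) with a 95% interval from -0.28 to 0.15.

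*Ramp2* (chromosome 11, 101246028 to 101259546, plus strand), the partner that makes the receptor selective for adrenomedullin, was at 432, 485, 716 and 503 normalised counts in the knockout, against 514, 529, 535 and 575 in wild type. Of the knockout hearts 3 lay below every wild type heart and 1, replicate 3, lay above all of them. The log2 change was -0.04 ± 0.14 (SE, adjusted p = 0.836, 95% interval -0.34 to 0.27), and without knockout replicate 3 it was -0.19 with an adjusted p of 0.0623. The annotated gene shares 1103 of its 3301 exonic bases with *Vps25* on the same strand, and counting tools that keep to 1 gene per read leave such pairs out, so the *Ramp2* counts rest on the other 2198 bases and carry this uncertainty.

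*Ramp1* (chromosome 1, 91179822 to 91225196, plus strand), the partner in the CGRP receptor, fell to less than its wild type range in every knockout heart. It had 33.4, 42.4, 24.8 and 23.3 normalised counts in the knockout, against 120.3, 152, 128 and 104 in wild type. The means were 31.0 ± 8.82 in the knockout and 126 ± 19.9 in wild type (SD, n = 4), so that *Ramp1* fell by 2.02 ± 0.22 on the log2 scale (SE, adjusted p = 1.73e-05), which is 4.04-fold lower. These values rest on 186 read pairs over the knockout libraries and 346 over the wild type libraries.

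*Ramp3* (chromosome 11, 6658521 to 6677475, plus strand), the partner in the second adrenomedullin receptor, had 74.5, 64.6, 50.2 and 66.8 normalised counts in the knockout, against 28.6, 54.2, 61.8 and 62.2 in wild type. The groups overlapped, and wild type replicate 1 stood below all other hearts. The log2 change was 0.35 ± 0.26 (SE, adjusted p = 0.262) with a 95% interval from -0.22 to 0.92, and without wild type replicate 1 it was 0.10 (adjusted p = 0.682). *Ramp3* shares 101 exonic bases with *Gm11978* on the opposite strand, and the counting used strand.

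**Figure D2:**
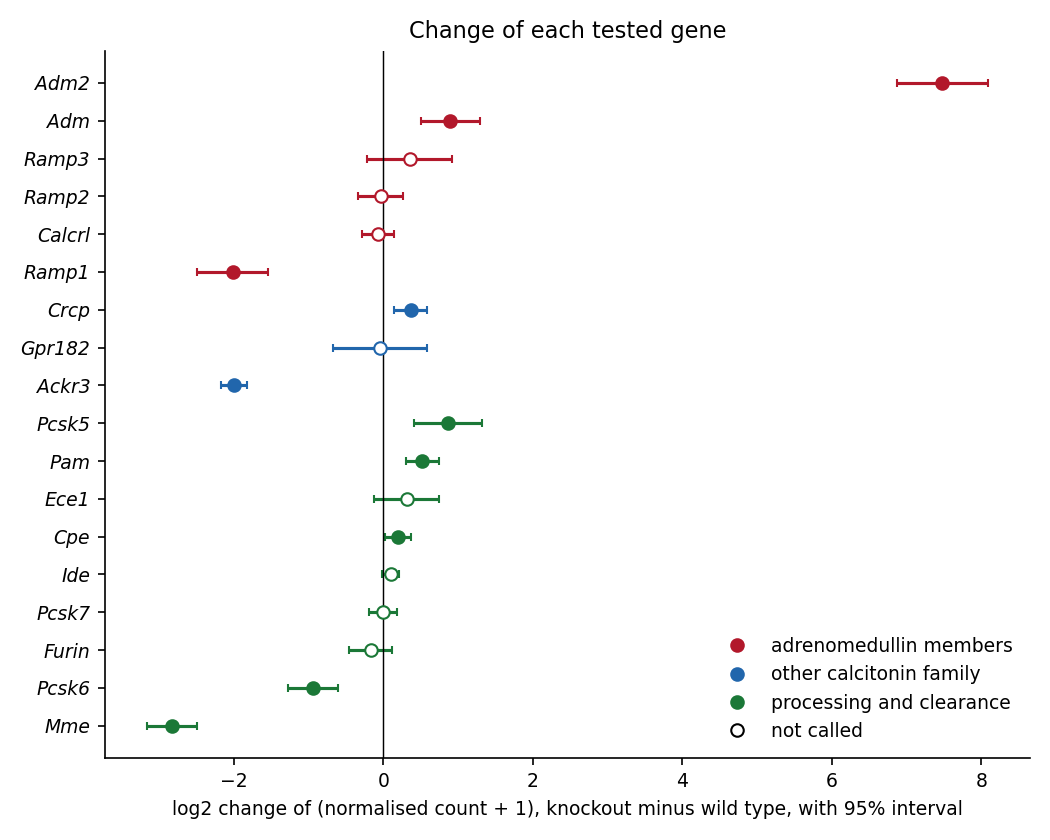
Log2 change of (normalised count + 1), knockout minus wild type, with its 95% interval (x axis) for each tested gene of the adrenomedullin system, the wider calcitonin family and the enzymes that process or clear the peptides. Open symbols did not pass an adjusted p of 0.05; *Adm2* lies far to the right, and its value depends on the pseudocount because wild type has no read, while *Mme*, *Ramp1* and *Ackr3* lie furthest to the left.

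Levels of different genes were compared per kilobase of merged exons not shared on the same strand. In the knockout the order of the means was *Ramp2* (243 ± 56.8), *Adm* (188 ± 47.9), *Calcrl* (178 ± 24.2), *Adm2* (139 ± 29.8), *Ramp3* (46.4 ± 7.36) and *Ramp1* (10.2 ± 2.92 normalised counts per kilobase, SD, n = 4). In wild type it was *Ramp2* (245 ± 11.8), *Calcrl* (186 ± 8.79), *Adm* (99.5 ± 16.2), *Ramp1* (41.7 ± 6.60) and *Ramp3* (37.5 ± 11.5), with *Adm2* at 0. In the knockout the ranges of the 4 leading genes overlapped from each to the next, whereas *Ramp3* lay below *Adm2* and *Ramp1* below *Ramp3* in 4 of 4 hearts. In wild type only the ranges of *Ramp1* and *Ramp3* overlapped between neighbours. These levels depend on which annotated exons the heart uses, which was not measured here.

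Among the RAMPs the make-up shifted away from *Ramp1*. *Ramp1* held 4.22%, 4.99%, 2.21% and 2.71% of the summed RAMP level per kilobase in knockout replicates 1 to 4, against 13.5%, 15.2%, 12.8% and 10.06% in wild type replicates 1 to 4. *Ramp2* held 80.4% ± 5.44 in the knockout and 75.7% ± 3.02 in wild type, and *Ramp3* 16.0% ± 4.51 in the knockout and 11.4% ± 3.01 in wild type (SD, n = 4). The groups did not overlap for the share of *Ramp1*, and overlapped for the shares of *Ramp2* and *Ramp3*. Shares of 1 sum are not independent of each other.

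**Figure D3:**
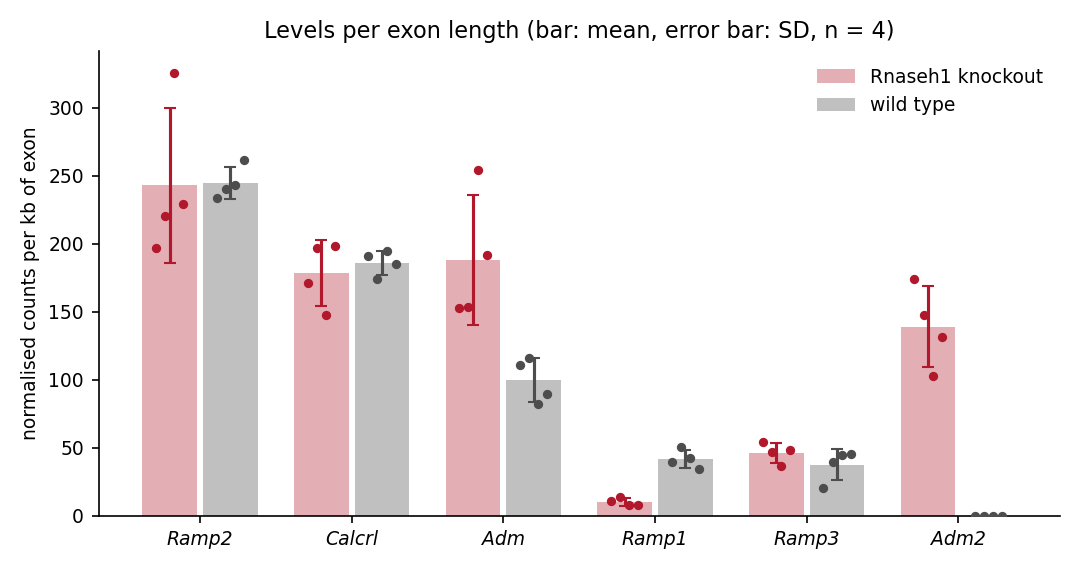
Level of each gene in normalised counts per kilobase of exon (y axis, from 0), with bars for the mean, error bars for the SD (n = 4) and points for single hearts, *Rnaseh1* knockout left of wild type. *Ramp2* and *Calcrl* have similar means in both groups, *Adm* and *Adm2* have higher bars in the knockout, and *Ramp1* drops to 10.2 in the knockout, against 41.7 in wild type.

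Ligands and RAMPs were also set against *Calcrl* within each library, where the scaling of a library cancels apart from the pseudocount. For *Adm2*, with no read in wild type, it does not cancel. Relative to *Calcrl*, *Adm* stood at -1.53 ± 0.50 in the knockout and -2.50 ± 0.29 in wild type on the log2 scale, a difference of 0.97. *Ramp1* relative to *Calcrl* stood at -4.80 ± 0.37 in the knockout and -2.85 ± 0.27 in wild type, a difference of -1.95. *Adm2* relative to *Calcrl* stood at -2.28 ± 0.28 in the knockout and -9.83 ± 0.07 in wild type, where the wild type value only reflects *Calcrl* and the pseudocount (SD, n = 4), so that its difference of 7.54 is a description, and was 5.25 with a pseudocount of 5 and 8.54 with 0.5. For *Adm* and for *Ramp1* all knockout hearts lay to one side of all wild type hearts (exact permutation p = 0.0286, which no split of 4 and 4 libraries can go below, and 0.0667 adjusted over the 7 differences, each). An adjusted p under 0.05 was thus not reached. The 7 differences include that of *Adm2*, which is no test, and this lowers the adjusted p of the others here and below.

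Relative to *Calcrl*, *Ramp3* was at -3.75 ± 0.19 in the knockout and -4.17 ± 0.54 in wild type, a difference of 0.42 (exact permutation p = 0.0571, adjusted p = 0.100). Without wild type replicate 1 this difference was 0.15 (exact permutation p = 0.229). *Ramp2* was at -0.72 ± 0.48 in the knockout and -0.75 ± 0.10 in wild type, a difference of 0.03 (exact permutation p = 1). In knockout replicate 3 *Ramp2* and *Calcrl* were almost level, at -0.0092, whereas the other 3 knockout hearts lay between -0.99 and -0.94. Without that heart the difference was -0.20 (exact permutation p adjusted 0.080). Per kilobase, *Adm* amounted to 0.894, 0.780, 1.72 and 0.967 of *Calcrl* in knockout replicates 1 to 4, against 0.580, 0.664, 0.422 and 0.484 in wild type.

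**Figure D4:**
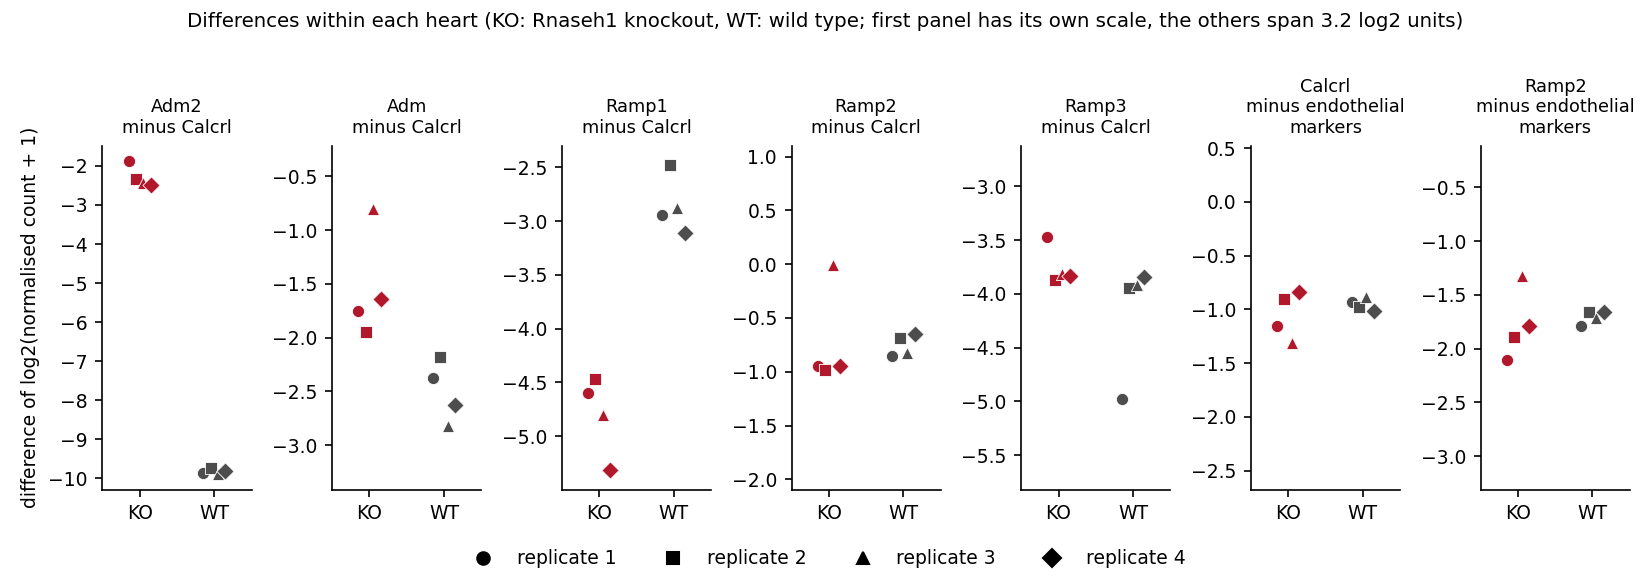
Difference of log2(normalised count + 1) within each heart (y axis) for ligands and RAMPs against *Calcrl*, and for *Calcrl* and *Ramp2* against the mean of 20 endothelial markers, knockout left of wild type, with symbols for replicate numbers. The groups are apart in the first 3 panels, and knockout replicate 3 stands apart for *Ramp2* minus *Calcrl*.

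Receptor genes were next set beside 20 markers of endothelial cells. Knockout hearts had 4 of the 20 markers higher and 6 of the 20 lower, against 30.7% and 28.4% of all genes tested. This count is no result about the list. The median log2 change of the markers was -0.02, against 0.02 over all genes tested. Their summed level ranged from 52569 to 59401 normalised counts in the knockout and from 54137 to 58074 in wild type. *Calcrl* minus the mean of the markers was -1.05 ± 0.22 in the knockout and -0.95 ± 0.05 in wild type (difference -0.10, exact permutation p = 0.429), and *Ramp2* minus the markers was -1.78 ± 0.33 in the knockout and -1.71 ± 0.06 in wild type (difference -0.07, exact permutation p = 0.686; SD, n = 4; adjusted p = 0.600 and 0.800). Both differences were smaller than the spread between knockout hearts. Without knockout replicate 3 *Ramp2* minus the markers differed by -0.22 (exact permutation p = 0.0286, adjusted p = 0.0667). Within the list *Vwf*, von Willebrand factor, rose by 1.22 ± 0.24 and *Sox17* by 0.84 ± 0.19, while *Cav1*, caveolin 1, fell by 0.93 ± 0.15 (SE). *Kdr*, the main VEGF receptor, was at -0.70 ± 0.26 (adjusted p = 0.0405), a call lost with edgeR (adjusted p = 0.0761) and DESeq2 (adjusted p = 0.0957), and without knockout replicate 3 or 4 or any single wild type library (limma adjusted p from 0.0610 to 0.115).

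**Figure D5:**
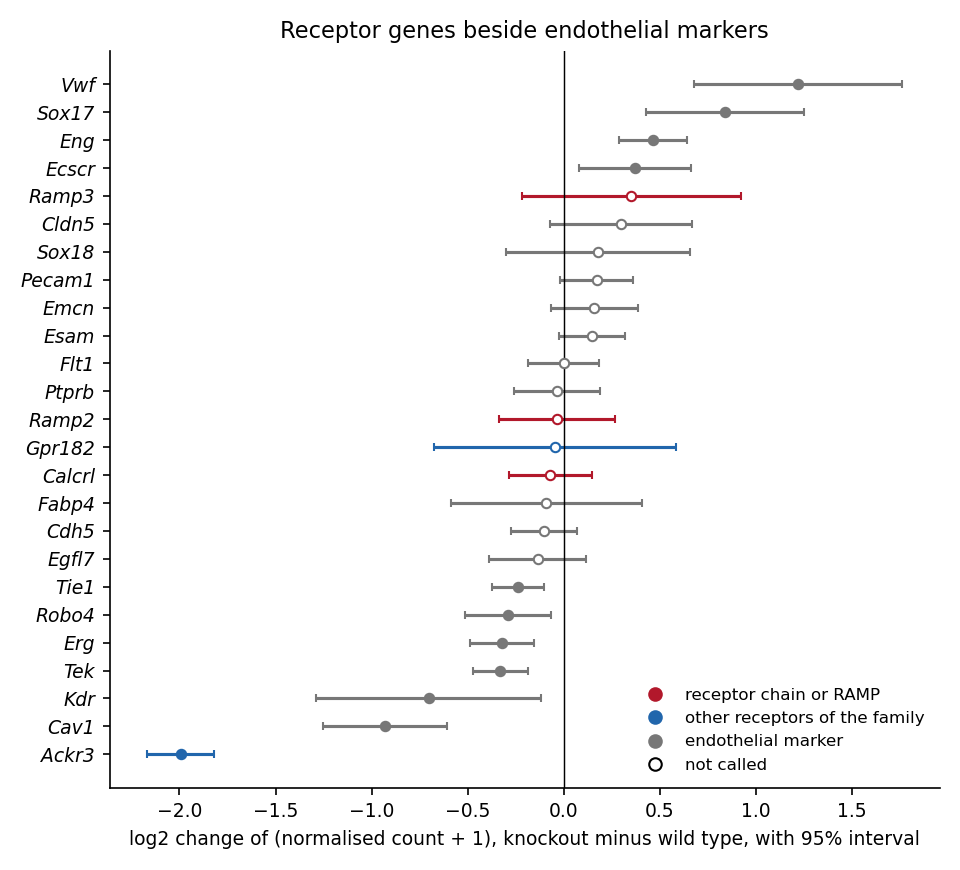
Log2 change of (normalised count + 1), knockout minus wild type, with its 95% interval (x axis) for *Calcrl*, *Ramp2* and *Ramp3*, for *Ackr3* and *Gpr182*, and for 20 endothelial markers, sorted by change. *Calcrl* and *Ramp2* lie within the markers near 0, while *Ackr3* lies below every marker at -1.99.

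Of 7 lymphatic endothelial markers 1 was higher and 2 lower (14.3% and 28.6%, against 30.7% and 28.4% of all genes tested). Their median log2 change was 0.05, with *Pdpn* at 1.36, *Ccl21a* at -1.47 and *Prox1*, the lymphatic master regulator, at -1.30. Their summed level ranged from 3701 to 4177 normalised counts in the knockout and from 5737 to 6159 in wild type. *Ccl21a* has 2 rows under its name, of which the one without reads was left out. Of 12 mural cell markers 2 were higher and 5 lower (16.7% and 41.7%, against 30.7% and 28.4% of all genes tested). Their median log2 change was -0.22, with *Acta2* at 1.10, *Pdgfrb* at 0.28, *Abcc9* at -1.63 and *Vtn* at -1.22. Their sums ranged from 30358 to 37360 in the knockout and from 42675 to 47362 in wild type. The call of *Pdgfrb* was lost without knockout replicate 1 or 2 or wild type replicate 1, 2 or 4 (limma adjusted p from 0.0635 to 0.0758). The part of these cells in the levels of *Calcrl* and the RAMPs was not tested.

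Marker transcripts of several other cell types also differed between the genotypes, in lists of 10 markers each. Of all genes tested, 30.7% were higher and 28.4% lower. All 10 cardiomyocyte markers were lower (sums 617071 to 737958 in the knockout, against 1822696 to 1906453 in wild type), with *Pln*, phospholamban, at -2.58 and *Myl3* at -2.12. Of the macrophage markers 9 were higher (sums 12676 to 15880 in the knockout and 4219 to 4839 in wild type), with *Itgam* at 2.83 and *Fcgr1* at 2.33. Of the fibroblast markers 7 were higher and 1 lower (sums 99858 to 125373 in the knockout and 52941 to 56368 in wild type), with *Postn*, periostin, at 3.16, *Mfap5* at 2.61 and *Gsn* at -0.71. Of the 6 tested nerve and Schwann cell markers 4 were lower (sums over all 10 of 367 to 432 in the knockout and 606 to 699 in wild type), with *Dbh*, dopamine beta-hydroxylase, at -3.60 and *Kcna1* at -1.72. No marker of 7 erythroid or 5 tested mesothelial ones was called. Mesothelial sums ranged from 134 to 338 in the knockout and from 133 to 230.0 in wild type. The part of these cells in the levels of *Adm*, *Adm2* and *Ramp1* was not tested.

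The wider calcitonin family was hardly expressed as ligands. *Calca*, which encodes calcitonin and CGRP, had 0, 1, 12 and 4 read pairs in knockout replicates 1 to 4 and 0 in each wild type heart, so that most of its 17 pairs came from 1 heart. *Calcb*, the second CGRP gene, had 0 pairs in the knockout and 2 in wild type, *Calcr*, the calcitonin receptor, had 2 in the knockout and 0 in wild type, and *Iapp*, amylin, had 0 in all 8 libraries. None of these 4 reached the limit for testing. A count of 0 over the 4 wild type libraries allows up to 1.11 normalised counts.

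Of the other 3 genes 1 was higher and 1 lower (33.3% each, against 30.7% and 28.4% of all genes tested). *Ackr3*, an atypical receptor that takes up adrenomedullin and the chemokine CXCL12, had 264, 293, 322 and 282 normalised counts in the knockout, against 1141, 1113, 1129 and 1243 in wild type. It fell by 1.99 ± 0.08 on the log2 scale (SE, adjusted p = 1.54e-08), with no overlap between the groups. *Crcp*, a cofactor of CGRP receptor signalling and a subunit of RNA polymerase III, rose by 0.36 ± 0.10 (adjusted p = 0.0103), with 240 ± 9.85 normalised counts in the knockout and 187 ± 19.8 in wild type (SD, n = 4). *Gpr182*, an endothelial receptor once proposed for adrenomedullin, had 75.2, 103, 225 and 151 normalised counts in the knockout, against 129, 133, 116 and 150.2 in wild type (log2 change -0.05 ± 0.28 SE, adjusted p = 0.903). The knockout hearts spanned both sides of the wild type range and ranked as they did for *Adm* and *Ramp2*.

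Among 9 genes for processing and clearance of the peptides 3 were higher and 2 lower. These shares, 33.3% and 22.2%, lie near the 30.7% and 28.4% of all genes tested, and the count is no result about this list. *Mme*, neprilysin, a membrane peptidase that cleaves adrenomedullin, had 49.4, 56.5, 67.8 and 41.6 normalised counts in the knockout, against 406, 381, 341 and 402 in wild type. It fell by 2.83 ± 0.15 on the log2 scale (SE, adjusted p = 1.10e-07), and no knockout heart came near the wild type range. *Pam*, the enzyme that amidates the end of both peptides and is needed for their activity, rose by 0.52 ± 0.10 (adjusted p = 0.00111), with 39455 ± 3815 in the knockout and 27599.7 ± 3479 in wild type (SD, n = 4).

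Of the proprotein convertases *Pcsk5* rose by 0.87 ± 0.21 (adjusted p = 0.00411) and *Pcsk6* fell by 0.94 ± 0.15 (adjusted p = 0.000348), while *Furin* was at -0.17 ± 0.13 and *Pcsk7* at -0.01 ± 0.09 (adjusted p = 0.296 and 0.959). *Cpe*, carboxypeptidase E, was at 0.20 ± 0.08 (adjusted p = 0.0484), and this call was lost with edgeR (adjusted p = 0.0526), with DESeq2 (adjusted p = 0.0641), with no filter (adjusted p = 0.0752), with the replicate block (adjusted p = 0.0875) and without knockout replicate 3 or 4 or wild type replicate 1, 3 or 4 (limma adjusted p from 0.0676 to 0.128). The peptidases *Ece1* and *Ide* were at 0.31 ± 0.19 and 0.10 ± 0.05 (adjusted p = 0.192 and 0.114). Without knockout replicate 3 *Furin* passed the test at -0.28 (adjusted p = 0.0279), and without knockout replicate 1 *Ece1* passed it at 0.46 (adjusted p = 0.0404).

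Of 26 genes of the stimulatory G protein and cyclic AMP pathway 9 were higher and 13 lower, with a median log2 change of -0.22, against 0.02 over all genes tested. The share higher, 34.6%, lies near the 30.7% of all genes tested, and 13 of 26 were lower, against 28.4% of all genes tested. *Pde4a*, a cyclic AMP phosphodiesterase, fell by 2.42 ± 0.12 and *Pde3a*, a phosphodiesterase of heart muscle, by 1.33 ± 0.07, whereas *Arrb2*, beta-arrestin 2, rose by 1.27 ± 0.11 and the adenylyl cyclase *Adcy7* by 1.24 ± 0.25 (SE). *Gnas*, the G protein itself, fell by 0.37 ± 0.06, *Adcy6* by 0.84 ± 0.07 and the kinase subunit *Prkaca* by 1.10 ± 0.06. In the same list *Grk5* rose by 1.02 ± 0.07, *Pde3b* by 0.85 ± 0.09 and *Prkar1a*, another kinase subunit, by 0.84 ± 0.14. Those from *Gnas* to *Prkar1a* were chosen after their values were seen. Many of these genes serve other receptors of the cardiomyocyte as well.

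Of 11 receptors that have been reported to pair with RAMPs 4 were tested. Only *Pth1r*, the parathyroid hormone receptor, passed the test, at 0.67 ± 0.16 (SE, adjusted p = 0.00388). That is 25.0% higher, against 30.7% of all genes tested, and 0% lower, against 28.4%. *Vipr1* was at -0.05, *Vipr2* at -0.59 and *Gper1* at -0.36 (adjusted p = 0.841, 0.132 and 0.262).

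Pathways known to act on the peptide genes in other settings were counted as well. *Adm* is a target of hypoxia-inducible factor, and of 16 tested genes among 17 such targets 4 were higher and 5 lower, with a median log2 change of 0.10. These shares, 25.0% higher and 31.2% lower, lie near the 30.7% and 28.4% of all genes tested, so the count is no result about these targets. *Slc2a1*, a glucose transporter, rose by 2.63 ± 0.23 and *Pgk1*, a glycolytic kinase, was 2.26-fold higher, while the oxygen sensor *Egln1* fell by 1.44 ± 0.05 and *Ankrd37* by 1.12 ± 0.34 (SE). Of 22 targets of the stress factor ATF4 21 were higher and 1 lower (95.5% and 4.55%, against 30.7% and 28.4% of all genes tested), with a median of 4.12. They included *Slc7a11*, the cystine transporter, at 8.51 ± 0.26, *Gdf15*, a stress cytokine, at 8.35 ± 0.51, and *Vldlr* at -1.76 ± 0.09. The list was chosen with earlier results of these data known, so its share is a description and no test. The part of either pathway in the levels of *Adm* and *Adm2* was not tested.

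The genes whose pattern over the 8 libraries was nearest to each member were found by the root mean square difference of centred log2 values. For *Adm2* they were *Dthd1* (0.23), *Slc7a3*, a transporter of basic amino acids (0.29), and *Fgf21*, a stress hormone (0.37). *Dthd1* had 137 ± 36.2 normalised counts in the knockout and, like *Fgf21* and *Adm2*, no read in wild type, where *Slc7a3* had 4.56 ± 1.70. With no or few reads in wild type, the distances of these genes from *Adm2* depend on the pseudocount. For *Adm* they were *Tmem38b*, a channel of the sarcoplasmic reticulum (0.12), *Pf4*, a platelet and macrophage chemokine (0.13), and *AA986860* (0.13). *Pf4* had 301 ± 88.2 normalised counts in the knockout and 137 ± 17.6 in wild type (SD, n = 4). For *Ramp1* they were *Epb41l3* (0.18), *Ppp2r3a* (0.18) and *Mdga1* (0.19), all lower in the knockout.

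*Calcrl* was nearest to *Fchsd2* (0.04), *Gtpbp8* (0.05) and *Tvp23b* (0.05), and *Ramp3* to *Catspere2* (0.16), *Stx1a* (0.17) and *AC114585.1* (0.19). *Ramp2* was nearest to *Trafd1* (0.06), to *Ptprb*, a phosphatase of vessel endothelium (0.06), and to *Fabp3-ps1* (0.06). *Ptprb* also stood in the list of endothelial markers. These are values of likeness over 8 libraries of 2 groups.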

How the data were processed

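Deposited values were gene counts of read pairs that the authors had divided by 1 DESeq2 size factor per library, a signal on a normalised scale. Per the methods and the submitters' notes, pairs were aligned to mm10 with HISAT2 2.10 and counted by strand with featureCounts 1.6.3 on Ensembl GRCm38, joined to the authors' mitochondrial annotation, with DESeq2 1.18.1 in R 3.5.1. A sheet of the authors' own comparison (log2 fold changes, p-values) was not used, and neither was a repeated block of mitochondrial rows. Whole read pairs were recovered for 100% of values above 0 within a tolerance of 0.01.

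Groups came from the sample titles. Genotype was tested with limma-trend (limma 3.58.1, R 4.3.3) on log2(normalised count + 1), two-sided, for the 17046 genes that averaged 10 or more normalised counts, adjusted by Benjamini and Hochberg at 0.05. The log2 scale with a pseudocount of 1 understates changes of low genes. Within-library differences were compared by exact permutation over 70 assignments. Exon lengths came from GENCODE M21 (GRCm38). Alternatives used pseudocounts of 0.5 and 5, no filter, other scalings, edgeR 4.0.16 and DESeq2 1.42.0 on the recovered reads, a replicate block, and each library left out. The fits were tested on simulated data. Replicates of each group all differed by more than sampling noise (chi-square per degree of freedom 3.69 or more). The study gives 4 animals per group for these libraries.

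Named genes were all members, every gene of the family and processing lists, up to 2 called genes with the largest rise and 2 with the largest fall of each longer list, the 3 nearest genes of each member, and *Rnaseh1*. Further genes of the cyclic AMP list were named after their values were seen. Members and lists were chosen with earlier results of these data known. 1 gene first placed in the processing list is not reported here.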

Additional observations from a re-analysis of the deposited data

Results flagged for a closer look

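Among 119 groups of 4 hearts checked, 9 held 1 heart far from the other 3 by Dixon's ratio at its 95% critical value, and chance gives about 1 in 20. Knockout replicate 3 had -0.0092 for *Ramp2* minus *Calcrl* on the log2 scale, against -0.99 to -0.94 in the other knockout hearts. For *Ramp3* minus *Calcrl*, knockout replicate 1 had -3.47, against -3.87 to -3.82, and wild type replicate 1 had -4.98, against -3.95 to -3.84.

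In knockout replicate 2 *Ide* had 2175 normalised counts, against 2276 to 2288 in the others. In wild type replicate 2 *Pcsk7* had 727 (others 630 to 643), *Mfap5* 216 (others 242 to 245) and *Dbh* 113 (others 63.9 to 70.7). In wild type replicate 4 *Ccl21a* had 223 (others 269 to 277) and *Acta2* 1590.1 (others 3082 to 3367).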

How the results depend on the processing

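The calls of *Adm* and *Ramp1* held under each alternative that was run. With 1 library left out their log2 changes ranged from 0.74 to 0.99 and from -2.18 to -1.90. *Adm2* ranged from 7.36 to 7.61, but its call is no test, since it passed the filter only through its knockout values. *Calcrl* ranged from -0.12 to 0.018, *Ramp2* from -0.19 to 0.056 and *Ramp3* from 0.10 to 0.46, none of them called. The fitted *Adm2* value depends on the pseudocount and the tool, since wild type has no read, at 8.47 with a pseudocount of 0.5, 5.19 with 5, 10.62 with edgeR and 9.35 with DESeq2. With equal nuclear totals the median gene shifted to 0.24 and with equal library totals to 1.44, from 0.02 with the deposited scaling. With equal nuclear totals *Calcrl* was at 0.16, *Ramp2* at 0.19, *Gpr182* at 0.18, *Furin* at 0.065 and *Kdr* at -0.47, none of them called. *Pcsk7* at 0.22, *Ece1* at 0.54 and *Ide* at 0.33 were called there (limma adjusted p = 0.0427, 0.0316 and 0.000246). Relative to the median gene of that scaling, *Pcsk7* was at -0.02, *Ece1* at 0.30 and *Ide* at 0.08. With equal library totals, 14952 genes were higher and 567 lower (96.3% of calls higher, against 69.2% with equal nuclear totals and 52.0% as deposited). *Ramp1* was then at -0.60 (limma adjusted p = 0.0272), *Calcrl* at 1.37, *Ramp2* at 1.40 and *Ramp3* at 1.77, all called, and *Adm2* was at least 438-fold higher. Also called were *Gpr182* at 1.39, *Furin* at 1.28, *Pcsk6* at 0.50, *Pcsk7* at 1.44, *Ece1* at 1.75, *Ide* at 1.54, *Cav1* at 0.51, *Kdr* at 0.74 and *Gsn* at 0.74. Not called were *Pde3a* at 0.12, *Egln1* at 0.0015, *Ankrd37* at 0.29, *Prox1* at 0.14, *Vtn* at 0.22, *Ccl21a* at -0.039, *Abcc9* at -0.19 and *Kcna1* at -0.30. Relative to the median gene of that scaling, *Adm* was at 0.89, *Ramp1* at -2.04, *Calcrl* at -0.07, *Ramp2* at -0.04 and *Ramp3* at 0.33.

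*Gpr182* was at 0.067 with edgeR and 0.059 with DESeq2. With 1 library left out *Gpr182* ranged from -0.32 to 0.21 and *Pcsk7* from -0.069 to 0.041, *Ramp2* minus *Calcrl* from -0.20 to 0.12 and *Ramp2* minus the endothelial markers from -0.22 to 0.038. Genes called higher numbered 4792 to 5474 and lower 4414 to 5030 with 1 library left out, 5237 and 4786 with edgeR and 5194 and 4852 with DESeq2, against 5241 and 4839.

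Same-numbered libraries did not deviate together (correlations from -0.07 to 0.04), so the numbers are not taken as pairs. With the replicate block 5076 genes were higher and 4645 lower, and no call of a member changed. In the paired permutation *Adm* minus *Calcrl* kept its 0.97 at p = 0.125 (exact permutation), the smallest that 4 pairs can give.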
